A study of Mus musculus with 4 samples.

Results

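Alveolar macrophages are the resident phagocytes of the air spaces, where they take up inhaled particles and break down used surfactant. In the mouse they depend on GM-CSF from the alveolar epithelium and on transforming growth factor beta, which act through the nuclear receptor PPAR-gamma, and they carry a characteristic set of surface lectins, scavenger receptors and lipid-handling genes. A list of 32 such genes was followed in whole lung of adult, age-matched mice as a list of named genes; it was drawn up with earlier results of these data known. The wild-type (WT) group had 2 arrays from mice of the strain given as C57/BL6, and the sickle cell disease (SCD) group had 2 arrays from mice whose strain was given as SCD Tg. Sickle cell disease is an inherited disorder of the beta globin chain in which red cells deform and break down. The sources used here do not name the transgenes and genetic background behind the SCD Tg label, the sex of the animals or the hour of collection, so that genotype cannot be told apart from strain. Each value is a log2 expression value of a probe set, and differences are SCD minus WT with the moderated standard error of limma (n = 2 arrays per group).

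Of the 32 genes, 27 had a probe set annotated to them alone, among 30718 genes measured in all. Siglecf was found under its older symbol Siglec5. The cathepsin gene Ctsd shared its probe set with Ifitm10, and no probe set used here was annotated to Ear1, Ear2, Csf2rb or Spp1. Each of the 27 genes had 1 probe set. Whole lung holds many cell types, and in such samples fewer macrophages and less RNA per macrophage cannot be told apart. Of 8 defining markers of alveolar macrophages, 7 are members of the list, all but Car4, so that they cannot test its label. Of the 8, 7 were measured. Of these, 1, the keratin gene Krt79, lay below the median of the array's negative-control probe sets on all 4 arrays (medians of 6.47 to 6.48 on the WT and 6.27 to 6.31 on the SCD arrays). Siglecf and Marco lay above that median on the WT arrays but not on the SCD arrays, while Chil3, Fabp1, Pparg and Car4 lay above it on all 4. Each array's negative-control median was above its median over all probe sets, 5.67 to 5.73. Antigenomic background probe sets had lower medians, 3.26 to 3.40. A value below the negative-control median is therefore dim, but is not shown to be background.

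The liver-type fatty acid binding protein gene Fabp1 and the scavenger receptor gene Marco fell in SCD lung, and Plet1, which encodes a surface protein of alveolar macrophages, dendritic cells and some epithelia, rose. These 3 were the members that passed an adjusted p of 0.05 in limma over all 30718 genes, 1 higher and 2 lower, with 24 not passing. Among all genes, 3.09% passed, 2.45% higher and 0.635% lower. Both SCD arrays lay above both WT arrays for 14 members, against 25.3% of all genes, and below for 7, against 22.5% of all genes. The groups overlapped for the other 6, so that they were apart for 21 of 27, against 47.8% of all genes. The median difference over the 27 members was 0.12, and over all genes it was 0.00. In limma without SCD replicate 1 or without SCD replicate 2, 0 genes of the array passed; 3306 and 3270 had an unadjusted p below 0.05.

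**Figure D1:**
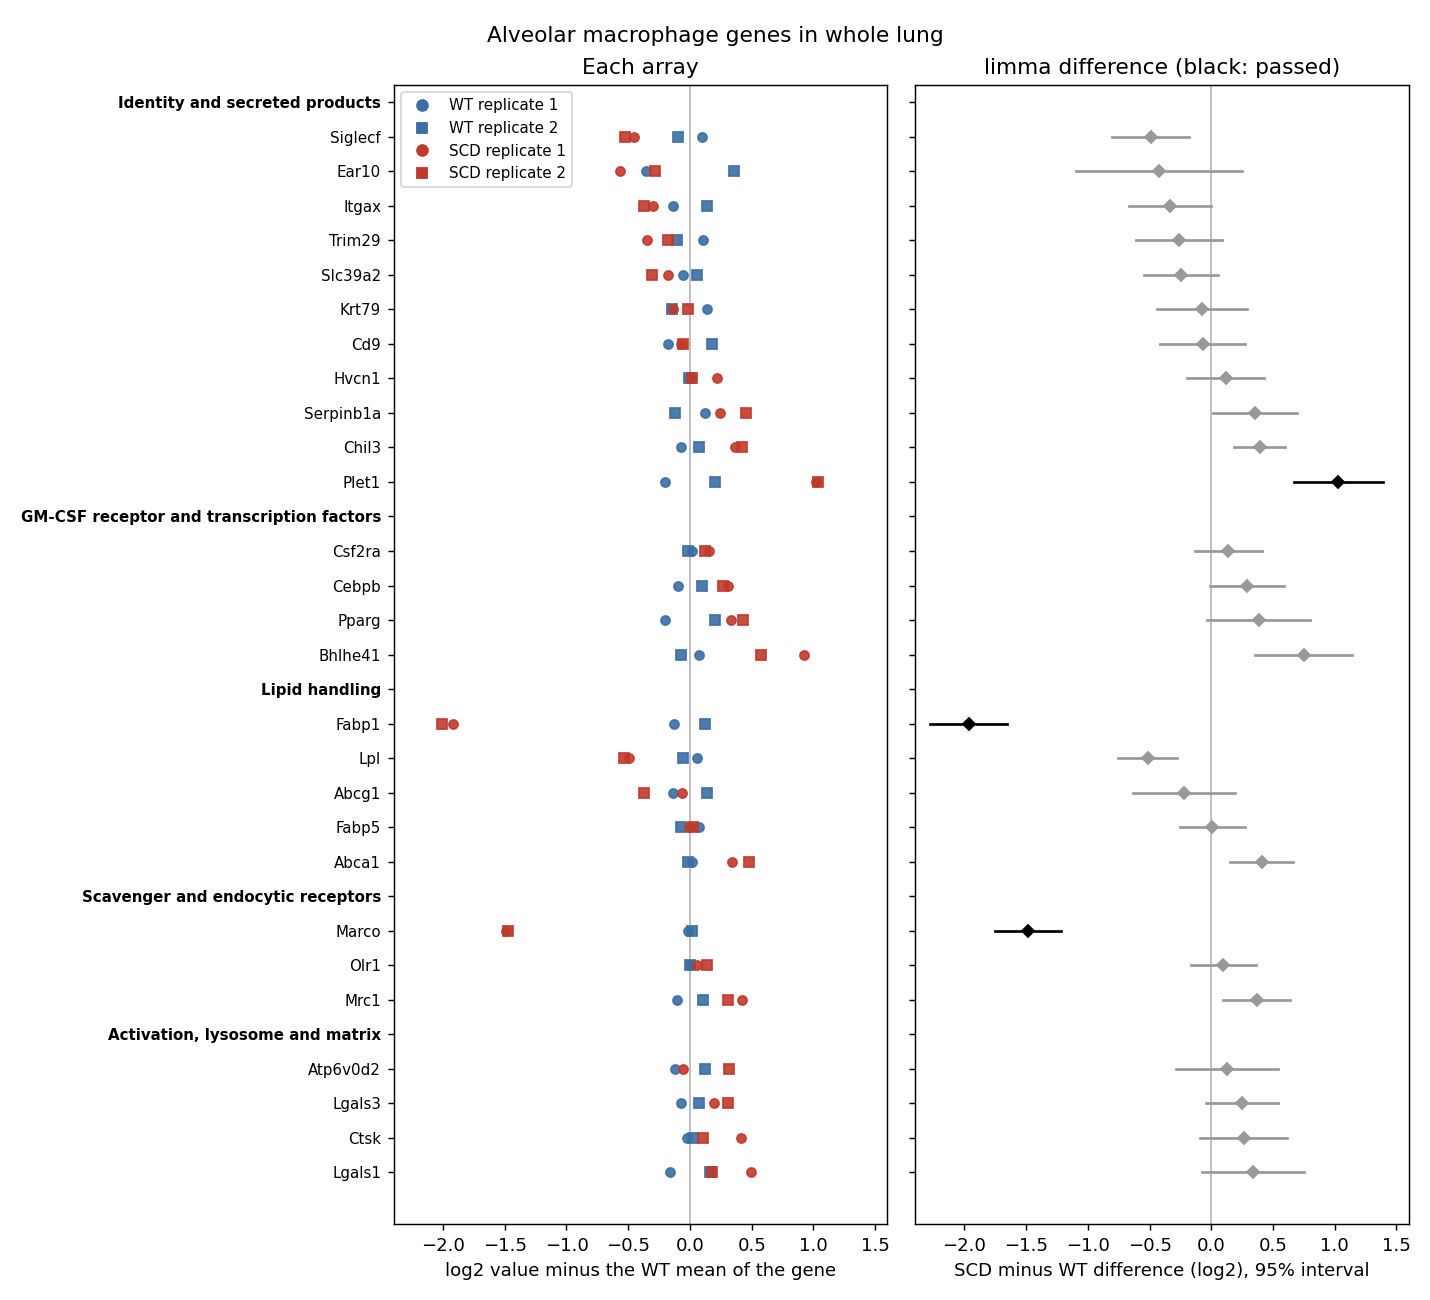
Left, log2 value on each array minus the WT mean of that gene, for the 27 members measured alone, grouped by role (blue WT, red SCD; circles replicate 1, squares replicate 2). Right, SCD minus WT difference on the log2 scale with its 95% interval, black where the adjusted p was under 0.05; Fabp1 (-1.96), Marco (-1.48, with SCD values below the negative-control median) and Plet1 (1.03) are the black points.

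The sequences around the start sites of these 3 genes are shown because the 3 carry the calls of the list, 2 downward and 1 upward. They run 5′ to 3′ on the gene's strand, from 250 bases before to 50 bases after the annotated start, and come from RefSeq on GRCm38.p6. Capitals mark matches, on either strand, to the letters GAGGAA (the core of the PU.1 motif), CACGTG (E-box), TGANTCA (AP-1), TTGCNNAA (C/EBP) and AGGTCA (half-site of nuclear receptors). Marco lies at chr1:120504975-120505274 on the minus strand, Fabp1 at chr6:71199629-71199928 on the plus strand and Plet1 at chr9:50494275-50494574 on the plus strand.
Marco: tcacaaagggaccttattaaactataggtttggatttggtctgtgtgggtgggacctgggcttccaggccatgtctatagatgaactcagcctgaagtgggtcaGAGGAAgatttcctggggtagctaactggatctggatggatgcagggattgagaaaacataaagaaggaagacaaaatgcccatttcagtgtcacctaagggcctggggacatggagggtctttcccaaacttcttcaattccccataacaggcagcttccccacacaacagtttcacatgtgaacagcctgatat
Fabp1: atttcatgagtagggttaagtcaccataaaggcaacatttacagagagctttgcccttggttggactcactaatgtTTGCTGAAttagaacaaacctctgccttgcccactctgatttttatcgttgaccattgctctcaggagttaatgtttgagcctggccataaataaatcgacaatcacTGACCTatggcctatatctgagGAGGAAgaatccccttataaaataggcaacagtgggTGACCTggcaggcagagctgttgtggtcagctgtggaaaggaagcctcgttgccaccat
Plet1: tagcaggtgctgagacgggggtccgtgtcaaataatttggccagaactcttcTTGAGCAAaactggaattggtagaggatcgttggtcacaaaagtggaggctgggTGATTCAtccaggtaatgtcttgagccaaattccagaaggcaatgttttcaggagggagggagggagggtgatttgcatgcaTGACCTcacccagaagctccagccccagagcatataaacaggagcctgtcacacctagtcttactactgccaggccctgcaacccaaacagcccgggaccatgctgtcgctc

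The Marco window held 1 match, a PU.1 core at position -146, counted from the start site. In the Fabp1 window a C/EBP match lay at -174, a PU.1 core at -45 and nuclear receptor half-sites at -67 and -9. Plet1 had a C/EBP match at -198, an AP-1 match at -144 and a half-site at -62. None of the 3 windows held the E-box letters. A PU.1 core stood in 28.3% of all 32851 promoter windows of this length, a half-site in 16.3%, a C/EBP match in 10.8%, AP-1 letters in 7.81% and an E-box in 7.15%. Windows were given for 23 of the 32 genes, and of these 9 held a PU.1 core, 8 a C/EBP match, 5 a half-site, 3 AP-1 letters and 3 an E-box. The 23 genes had 26 windows, and a gene was counted if any of its windows matched, so that these counts and the shares per window are unlike. Among the genes with a C/EBP match were Ear1, Ear2 and Ear10, which are near-identical copies. The E-box was found in Abca1, Bhlhe41 and Ctsd. These matches describe the letters of the windows only.

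Among the scavenger and endocytic receptors, 1 of 3 fell and the other 2 did not pass. Marco, a class A scavenger receptor that binds bacteria and particles, had log2 values of 6.84 and 6.88 in WT lung and 5.37 and 5.39 in SCD lung. The arrays of a group lay close together and the groups were far apart. Both SCD values lay below the negative-control medians of their arrays, 6.31 and 6.27. Such values are dim but not shown to be background, and the fold is given here only as a bound against those medians. Against those medians Marco was at least 1.48-fold lower in SCD lung. The fitted difference, which takes the dim values as they stand, was -1.48 ± 0.10 (limma adjusted p = 0.0078).

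Mrc1, the mannose receptor, which interstitial macrophages also carry, had values of 11.02 and 11.22 in WT and 11.54 and 11.43 in SCD lung. All SCD values were higher, but the difference of 0.37 ± 0.11 did not pass (adjusted p = 0.184). Olr1, a receptor for oxidized lipoproteins, differed by 0.10 ± 0.10, with an interval of -0.16 to 0.36. Msr1, another class A scavenger receptor and not a member, rose by 0.89 ± 0.13 (adjusted p = 0.0409), from a WT mean of 7.01 to an SCD mean of 7.90. The call of Msr1 was lost in limma without the intensity trend (adjusted p = 0.0577), with the positive control shift removed (0.0663) and with either WT replicate left out (0.118 and 0.0645). Marco and Msr1, of the same receptor class, differed from WT in opposite directions.

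Of 5 genes of lipid handling, Fabp1 fell and 4 did not pass, and the median difference was -0.22. Fabp1, which carries fatty acids in liver and gut and marks alveolar macrophages in the mouse, had values of 10.06 and 10.31 in WT and 8.26 and 8.17 in SCD lung. No SCD value came near a WT value. The difference was -1.96 ± 0.12 (3.90-fold lower; adjusted p = 0.0064). Fabp5, the epidermal member of the same protein family, read 8.76 and 8.61 in WT and 8.67 and 8.71 in SCD lung, with overlapping groups and a difference of 0.01 ± 0.10. The interval of Fabp5, -0.26 to 0.27, did not reach that of Fabp1, -2.28 to -1.65.

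Fabp1 is known foremost from hepatocytes, and of 5 hepatocyte markers 4 were measured. Of these, 3 lay below the negative-control median on all 4 arrays, Alb, Apoa1 and Ttr, and Apoa2 lay above it on 2 arrays. The albumin gene Alb passed as lower (adjusted p = 0.0464), at 5.77 and 5.62 in WT and 4.97 and 4.88 in SCD lung, with no fold given since all values were under the negative-control median. The summed linear level of the 4 markers was 192 to 229 in WT and 153 to 196 in SCD lung. Their part in the fall of Fabp1 was not tested.

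Lpl, lipoprotein lipase, which macrophages, adipocytes and muscle make and capillaries display, had values of 10.19 and 10.07 in WT and 9.64 and 9.59 in SCD lung. The groups were apart, but the difference of -0.51 ± 0.09 did not pass (adjusted p = 0.0665). It passed with the dimmest 50% of genes left out (adjusted p = 0.0401), after repeated quantile normalization (0.0493) and with the shift of the positive controls removed (0.0303).

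Of 5 adipocyte markers measured, 2 fell, Adipoq (-1.33) and the resistin gene Retn (-0.94), and 3 did not pass, with Plin1 and Lep below the negative-control median on all arrays. Their summed linear level was 853 to 1059 in WT and 486 to 501 in SCD lung. Of 6 capillary markers, 3 fell and 3 did not pass; Gpihbp1, the anchor of lipoprotein lipase on capillaries, was among those that fell (-1.56). The part of these cells in the value of Lpl was not tested.

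Neither cholesterol exporter passed. Abca1 read 8.87 and 8.84 in WT and 9.19 and 9.33 in SCD lung, higher on both SCD arrays, with a difference of 0.41 ± 0.10 that did not pass (adjusted p = 0.128). Abcg1 overlapped between groups, with a difference of -0.22 ± 0.16. The oxysterol receptor gene Nr1h3, whose protein drives both exporters, differed by 0.15 ± 0.10 and did not pass. Both WT values of Nr1h3 lay below the negative-control medians, so that its difference rests on a dim WT signal.

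In a wider list of 18 genes of lipid and surfactant turnover, 15 were measured, 1 rose and 3 fell. Fabp4, the adipocyte and endothelial fatty acid binding protein, fell by 1.22 (adjusted p = 0.0078). Hilpda, a lipid droplet protein gene, fell by 1.09 (adjusted p = 0.0116) and the fatty acid translocase gene Cd36 by 0.66. Cd36 is also among the capillary markers that fell. The apolipoprotein gene Apoe rose by 0.65 (adjusted p = 0.0444). The call of Apoe held in 7 of 15 alternatives. It was lost in limma with the replicate number as a block (adjusted p = 0.0691), without the intensity trend (0.0708), after repeated quantile normalization (0.0621), with the positive control shift removed (0.0859) and with any 1 array left out (0.0867 to 0.321). The call of Hilpda was lost without WT replicate 1 (0.0508) and that of Cd36 without the intensity trend (0.0568). Lipa, the acid lipase gene (0.28 ± 0.15), and Plin2, which coats lipid droplets (0.25 ± 0.15), did not pass.

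**Figure D2:**
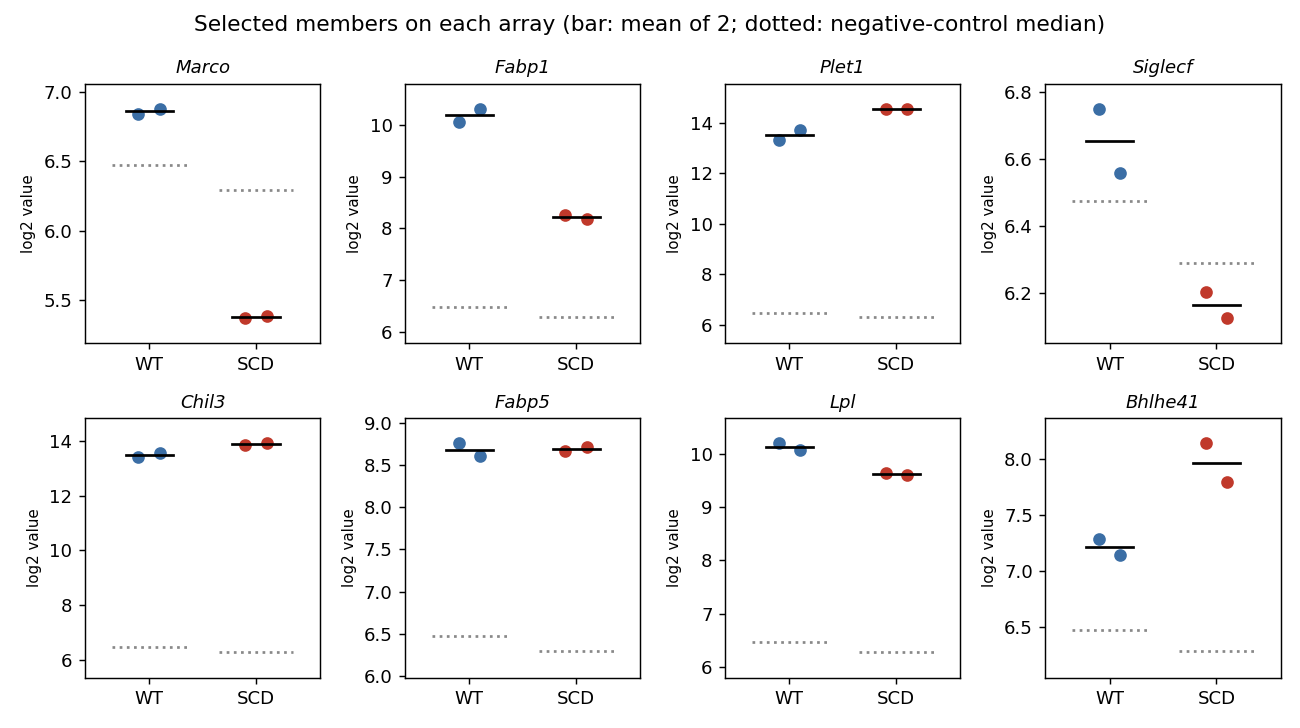
Log2 values of 8 members on each array, 2 per group; the bar is the group mean and the dotted line the mean of the negative-control medians of that group's arrays. Axes differ between panels and do not start at 0. Marco and Siglecf cross the dotted line between WT and SCD, while Fabp5 is level.

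Of 13 identity genes and secreted products, 11 were measured, Plet1 rose, 10 did not pass, and the median difference was -0.07. Plet1 read 13.31 and 13.71 in WT and 14.53 and 14.55 in SCD lung. Both SCD arrays lay above both WT arrays, and the difference was 1.03 ± 0.14 (2.04-fold higher; adjusted p = 0.0316). The call was lost in limma without the intensity trend (adjusted p = 0.0625) and with the positive control shift removed (0.0511). In the same lungs, secretory airway genes, a list drawn up with many of their values known, rose in 5 of 10 cases and fell in none. One of the 5, the lactoferrin gene Ltf (1.67), is also among the neutrophil markers that rose. The airway genes that rose also included the lectin gene Reg3g, by 2.71, and Bpifb1, by 2.28. The summed linear level of the 10 airway genes was 1284047 to 1309377 in WT and 1328628 to 1339920 in SCD lung. Scgb1a1, with the same value on all 4 arrays, is the largest term of that sum. All 6 basal and squamous markers lay below the negative-control median on every array. The part of airway cells in the rise of Plet1 was not tested.

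Siglecf, a sialic acid binding lectin of alveolar macrophages and eosinophils, read 6.75 and 6.56 in WT and 6.20 and 6.13 in SCD lung. It was lower on both SCD arrays by 0.49 ± 0.12, which did not pass (adjusted p = 0.132). Of 6 eosinophil markers none passed, and 5 lay below the negative-control median on all arrays. The sixth, Prg2, lay above that median only on the array of SCD replicate 1, so that its difference of 0.97 ± 0.21 (adjusted p = 0.103) rests on dim signals. Itgax, the CD11c integrin chain shared with dendritic cells, read 8.21 and 8.48 in WT and 8.04 and 7.97 in SCD lung, a difference of -0.34 ± 0.13 that did not pass. Among 9 dendritic cell markers, the chemokine gene Ccl17 rose and 8 did not pass, with Clec9a at -0.50 ± 0.12.

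Chil3, the secreted chitinase-like protein Ym1, had values of 13.40 and 13.55 in WT and 13.84 and 13.90 in SCD lung. Both SCD arrays were higher, by 0.39 ± 0.08, which did not pass (adjusted p = 0.0862). Its close paralog Chil4 differed by 0.32 ± 0.11 (adjusted p = 0.248) and did not pass either; probes for 2 such similar genes may share signal. Chil1, a further chitinase-like gene and not a member, rose by 0.57 ± 0.07 (adjusted p = 0.0267), from 12.36 and 12.43 to 12.98 and 12.94. It passed in 9 of 15 alternatives, and lost the call without WT replicate 1 (limma, adjusted p = 0.0713), without the intensity trend (0.0809), after repeated quantile normalization (0.130), with the positive control shift removed (0.0691) and without either SCD array (0.256 and 0.235). Serpinb1a, an inhibitor of neutrophil proteases, read 9.50 and 9.26 in WT and 9.62 and 9.84 in SCD lung (0.35 ± 0.13, adjusted p = 0.284). Neutrophils also make both of these gene products, and 7 of 10 neutrophil markers rose and none fell. Their summed linear level was 68920 to 90834 in WT and 442035 to 492995 in SCD lung. That sum is mostly S100a8 and S100a9, so that it says little of the other neutrophil markers. Ly6g and Ngp lay below the negative-control median on all arrays. The part of neutrophils in the values of Chil3 and Serpinb1a was not tested.

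The remaining identity genes did not pass. Cd9, a tetraspanin, differed by -0.07 ± 0.13 with overlapping groups. The zinc transporter gene Slc39a2 (-0.24 ± 0.12), Trim29 (-0.26 ± 0.14), Krt79 (-0.07 ± 0.14) and the proton channel gene Hvcn1 (0.12 ± 0.12) lay below the negative-control median on all 4 arrays, so that their differences rest on dim signals. With the positive control shift removed, Hvcn1 changed sign.

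The Ear genes encode ribonucleases of eosinophils and macrophages and form a cluster of near-identical copies on chromosome 14. Of the 3 listed, Ear10 was measured, at 6.06 and 6.78 in WT and 5.86 and 6.14 in SCD lung, with overlapping groups and a difference of -0.43 ± 0.26 (adjusted p = 0.512). The array also had 11 other probe sets named for the family, 9 of which did not pass. The other 2, named for pseudogenes, were the only ones of the family above the negative-control median on all 4 arrays. Ear-ps9 read 12.46 and 12.50 in WT and 11.40 and 11.75 in SCD lung, a fall of 0.91 ± 0.13 (adjusted p = 0.0392). Ear-ps2 read 11.40 and 11.52 in WT and 10.55 and 10.79 in SCD lung, a fall of 0.79 ± 0.11 (adjusted p = 0.0356).

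In the RefSeq order of the family, Ear-ps2 stands next to Ear2, and Ear-ps9 is parted from Ear1 by Ear-ps12. Which copies these probe sets read was not tested, and signal may be shared across the family. Both calls were lost in limma without the intensity trend (adjusted p of 0.067 for Ear-ps2 and 0.0702 for Ear-ps9) and with either WT replicate left out.

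**Figure D3:**
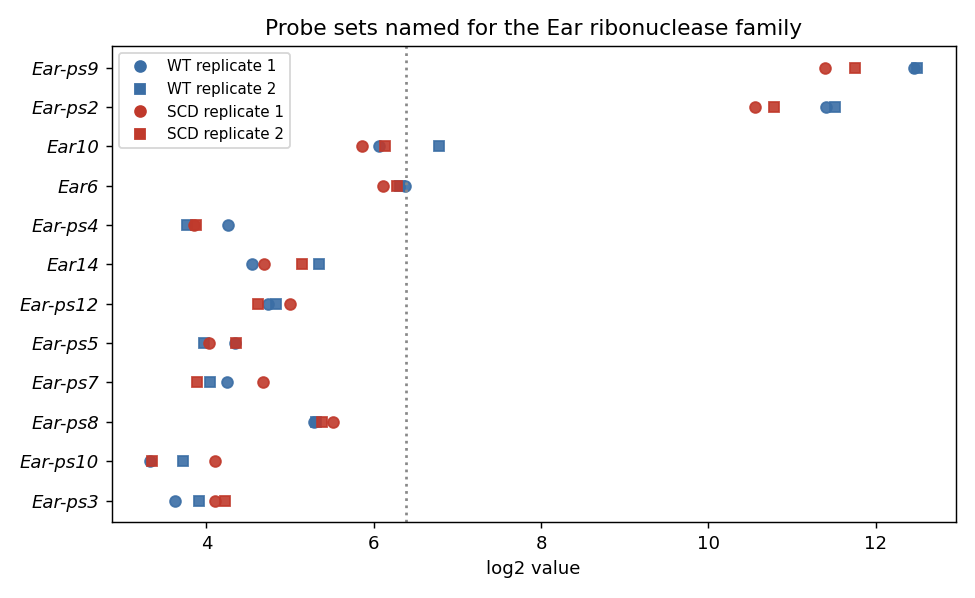
Log2 values on each array of the 12 probe sets named for the Ear ribonuclease family (blue WT, red SCD; circles replicate 1, squares replicate 2), ordered by difference. The dotted line is the mean negative-control median over the 4 arrays; Ear-ps9 and Ear-ps2 lie far to its right, with both SCD arrays below both WT arrays.

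None of the 4 measured genes of the GM-CSF receptor and the transcription factors passed, with a median difference of 0.34. All 4 had higher values on both SCD arrays, as had 14 of the 27 members and 25.3% of all genes. With the positive control shift removed, Csf2ra changed sign. Bhlhe41, a repressor that with Bhlhe40 maintains alveolar macrophages in mice, read 7.29 and 7.14 in WT and 8.13 and 7.79 in SCD lung. The difference was 0.75 ± 0.15 and did not pass (adjusted p = 0.0862). Pparg, the nuclear receptor of the lineage, read 7.68 and 8.09 in WT and 8.22 and 8.32 in SCD lung (0.38 ± 0.16, adjusted p = 0.336). The groups of Pparg were apart by less than the gap between the WT arrays. Cebpb differed by 0.29 ± 0.12. Csf2ra, the ligand-binding chain of the GM-CSF receptor, differed by 0.14 ± 0.11, below the negative-control median on all arrays.

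Among 24 signals and regulators around this axis, 23 were measured, and 1 passed. That gene was Bhlhe40, the partner of Bhlhe41, which rose by 1.72 ± 0.11 (adjusted p = 0.0069), from 6.49 and 6.35 to 8.09 and 8.19. Of its WT values, replicate 2 lay below the negative-control median of its array, 6.47, and replicate 1 close to its own, 6.48, so that the size of the rise rests on a dim WT signal. The GM-CSF gene Csf2 overlapped between groups (0.17 ± 0.22) and lay above the negative-control median only on the array of SCD replicate 2. The values of Jak2, the kinase of the GM-CSF receptor (0.45 ± 0.08, adjusted p = 0.0667), Tgfbr2 (0.51 ± 0.12) and the lineage factor gene Spi1 (0.40 ± 0.25) did not pass. Bhlhe40 and Bhlhe41 also belong to the circadian clock. In a list of 14 other clock genes, drawn up with their values known, 7 rose and 2 fell. Nr1d1 rose by 1.71, and Arntl, with both SCD values below the negative-control medians, was at least 2.24-fold lower in SCD lung. The summed linear level of the 14 was 5152 to 5519 in WT and 7771 to 7937 in SCD lung. That sum adds genes of both directions, and its largest term in WT lung is Clock, which did not pass. None of the 14 lay below the negative-control median on all arrays, but Per2 and Hlf lay below it on both WT arrays. The part of the clock in the values of Bhlhe41 and Bhlhe40 was not tested.

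No gene of the activation, lysosome and matrix group passed. Of 6, 4 were measured, and all 4 differences were positive, from 0.13 to 0.34, against 50.3% of all genes with a positive difference. Atp6v0d2 changed sign with the positive control shift removed. Ctsk, the protease cathepsin K, read 7.21 and 7.25 in WT and 7.65 and 7.34 in SCD lung (0.26 ± 0.14, adjusted p = 0.437). Lgals3, the macrophage galectin, read 7.41 and 7.56 in WT and 7.68 and 7.80 in SCD lung (0.25 ± 0.11, adjusted p = 0.363). For both genes the SCD arrays were the higher, without passing the test. Lgals1, a galectin of many stromal cells, differed by 0.34 ± 0.16, and Atp6v0d2, a subunit of the proton pump of lysosomes, by 0.13 ± 0.16 with overlapping groups. The probe set shared by Ctsd and Ifitm10 differed by 0.23 ± 0.15 and did not pass.

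Of 25 other genes known to be high in alveolar macrophages, all measured, 4 rose, none fell and 21 did not pass, with a median difference of 0.20. Among all genes, 2.45% passed as higher. Siglec1, Fcgr1 and Trem2 lay below the negative-control median on all 4 arrays. The macrophage elastase gene Mmp12 rose (adjusted p = 0.0114), from 5.78 and 5.54 to 7.01 and 7.12. Both WT values were below the negative-control medians, against which Mmp12 was higher in SCD lung by at least 0.59 on the log2 scale. The chemokine gene Ccl6 rose by 1.31 ± 0.16 (adjusted p = 0.0244). Car4, a carbonic anhydrase of alveolar macrophages that lung capillaries also carry, rose by 1.18 ± 0.09 (adjusted p = 0.0078). Msr1 was the fourth. General macrophage genes such as Cd68 (0.35 ± 0.10) and Mertk (-0.34 ± 0.11) did not pass, and Lyz2 had the same value on all 4 arrays, so that it gives no direction.

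Of 14 markers of interstitial macrophages and monocytes, 13 were measured, 3 rose (Ly6c2 by 1.55, Ccr2 by 1.11 and Lyve1 by 0.92), none fell and 10 did not pass, with a median difference of 0.44. Their summed linear level, with Ly6c2 as the largest term, was 51116 to 53245 in WT and 135975 to 137870 in SCD lung. C1qa, C1qc, Folr2 and Cd163 lay below the negative-control median on all arrays. Of 8 alveolar type 2 markers none passed, with a median difference of -0.09 and a summed linear level of 1441036 to 1444556 in WT and 1408640 to 1416367 in SCD lung. The largest term of that sum, the surfactant gene Sftpc, had the same value of 19.93 on all 4 arrays, so that the sum says little of a change. The part of these cells in the values of Mrc1, Abca1, Lgals3 and the other shared genes was not tested.

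**Figure D4:**
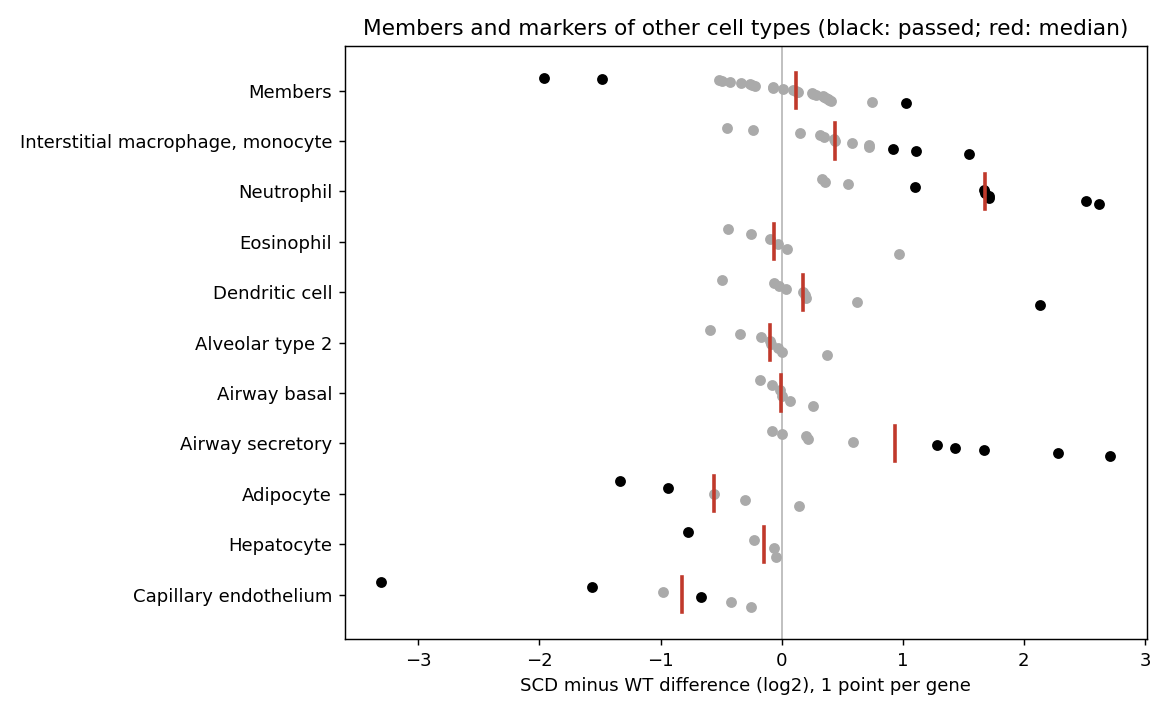
SCD minus WT difference on the log2 scale for each measured gene of the list and of the marker lists of other cell types, 1 point per gene, black where the adjusted p was under 0.05; the red bar is the median of the list. The members spread from -1.96 to 1.03 around a median of 0.12, and the neutrophil markers all lie above 0.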

How the data were processed

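The authors deposited a table of log2 expression with a value for each probe set on each array; that the scale is log2 was read from the values (1.72 to 19.93). RMA, Partek and Affymetrix Expression Console are named in the submitters' processing notes, without version, role or order. Per the labels' protocols, RNA was extracted with TRIzol and labelled through a 3' in vitro transcription kit. Over all 72688 probe sets the array medians lay between 5.67 and 5.73. Precision is limited by the number of arrays. The positive-control medians were higher on the SCD arrays by 0.20.

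The platform annotation, with symbols updated through RefSeq (GRCm38.p6), paired 31280 probe sets with 1 gene, 1470 with several and 33206 with none. For a gene with several probe sets, the one of highest mean over the 4 arrays was used, which gave 30718 genes, 21 of them with identical values on all arrays. The groups were compared in R 4.3.3 with limma 3.58.1 (lmFit and eBayes with an intensity trend, two-sided, no filter on dim probe sets), with Benjamini-Hochberg adjustment over all genes and a threshold of 0.05. Intervals are 95% intervals from the same fit. Where every array of one group lay below the negative-control median, a fold is a bound, the mean of the other group against the mean of those medians. The fit was tested on simulated data, with few genes changed and independent errors drawn from the variance model that the fit assumes. Recovery and false calls may differ on the real arrays. In 5 simulations, 15.8% of changes of 1 log2 unit passed and 86.6% of changes of 2, with 3.4 false calls on average. A gene that did not pass is therefore not shown to be unchanged. Groups came from the sample titles; the labels do not say that the arrays are separate animals, and p-values then measure the spread between these samples, which may be technical.

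The members and lists were chosen with earlier results of these data known. All members are named. From each other list, genes past the threshold (at most 6 per list, smallest p first) and chosen ligands, enzymes or markers are named; the secretory airway, clock, Chil4 and Chil1 genes were added last, with their values known. The replicate block, other variance models, array weights, filters, probe set rules, normalizations, another threshold and each array left out were tried as alternatives.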

Additional observations from a re-analysis of the deposited data

How the results depend on the processing

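No call was made with either SCD array left out. With each array left out in turn, genes called higher ranged from 0 to 644 and lower from 0 to 143, members higher from 0 to 1 and members lower from 0 to 2, and the members' median difference from 0.057 to 0.11. The zeros came without SCD replicate 1 or SCD replicate 2, where the lone array is assumed to vary like the WT arrays; the adjusted p was then 0.0828 and 0.108 for Marco, 0.0826 and 0.0992 for Fabp1, and 0.205 and 0.214 for Plet1. Without WT replicate 1, 418 genes were higher and 91 lower, against 754 and 195 with all arrays. Fabp1 and Marco passed in the other 13 of 15 alternatives and Plet1 in 11 of 15.

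Members called higher fell to 0 without the intensity trend and with the positive control shift removed, and rose to 3 at an adjusted p of 0.1. Genes called lower numbered 114 without the intensity trend, 321 without the dimmest 50% of genes, 344 after repeated quantile normalization and 569 with the positive control shift removed. Of all calls, 79.5% were higher, against 64.4% after repeated quantile normalization and 47.7% with the positive control shift removed, which moved the median of all genes to -0.19. The members' median difference was 0.045 after repeated quantile normalization, 0.16 with arrays centred on their median and -0.078 with the positive control shift removed. Signs turned for members that did not pass: with the positive control shift removed for Fabp5 (-0.19), Atp6v0d2 (-0.067), Olr1 (-0.099), Csf2ra (-0.057) and Hvcn1 (-0.078), and for Fabp5 (-0.094) after repeated quantile normalization. With an array left out, the difference ranged from -0.22 to 0.068 for Krt79, from -0.066 to 0.082 for Fabp5, from -0.25 to 0.11 for Cd9 and from -0.055 to 0.31 for Atp6v0d2. The cause of these changes was not tested, except that the shift was by construction taken off every SCD value.

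The titles share replicate numbers. Deviations of same-numbered arrays from their group means correlated at r = -0.0022 across genes. The labels do not say what else same-numbered samples share, and a correlation from 2 arrays per group cannot settle it. With the replicate number as a block, 775 genes were higher and 193 lower, and the calls of the 27 members did not change; the call of Apoe was lost. Krt79 and Trim29 could not be fitted without the dimmest 50% of genes, being among those left out.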
